A study of Mus musculus with 19 samples.

Results

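The levels of 8 hedgehog genes were followed in whole ovaries of female mice: the ligand genes Dhh and Ihh, the receptor gene Ptch1, the signal transducer gene Smo, the transcription factor genes Gli1, Gli2 and Gli3, and the inhibitor gene Hhip. They were taken from the deposited count table by gene symbol, 8 of 36172 genes in all, and all 8 were among the 15518 genes that passed a filter on low counts. RNA came from C57BL/6 mice, an inbred strain, at 3 months (5 libraries), 6 months (5 libraries), 9 months (5 libraries) and 12 months (4 libraries). The labels name no treatment, mutation or transgene at any age. They give no mouse for a library, so the tests rest on differences among libraries that could be partly technical.

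Hedgehog ligands are secreted proteins. In the absence of ligand the receptor PTCH1 holds back SMO, and binding of ligand to PTCH1 releases SMO, which works in the primary cilium to turn GLI proteins into activators. GLI1 is mainly an activator and GLI3 mainly a repressor, while Gli1, Ptch1 and Hhip are themselves targets of the pathway in many tissues, so their transcripts are widely used as its readout. In the mouse ovary, granulosa cells of growing follicles make Dhh and Ihh, and the responding cells lie mostly in the theca and stroma around the follicle.

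The genes lie on several chromosomes of the mm10 build. Dhh spans chr15:98881615-98898562, Ihh chr1:74945315-74951672, Ptch1 chr13:63508328-63573460 and Hhip chr8:79965850-80058060, all on the minus strand. Smo spans chr6:29735497-29761366 and Gli3 chr13:15463723-15730026 on the plus strand, and Gli1 chr10:127329882-127341579 and Gli2 chr1:118834061-119054405 on the minus strand. Of 4399 annotated exon bases of Dhh, 546 are shared with Rhebl1 on the same strand and 1107 with an antisense gene, so Dhh counts are uncertain to that extent. Rhebl1 itself was low, with means of 3.11 CPM at 3 months and 4.40 CPM at 9 months, where CPM is a count scaled to its library's size with TMM factors. Gli1, Gli3 and Hhip share between 62 and 265 exon bases with genes on the opposite strand.

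The sequences just upstream of Dhh and Hhip are shown because these transcripts had the highest Pearson r of the 9 pairs compared, and that of Ihh because it is the other ligand. They were read from RefSeq's table of promoter windows (build GRCm38.p6), which run from 250 bases before to 50 after each gene's start and matched 7 of the 8 genes. The stretches printed hold no annotated exon of the gene: chr15:98898563-98898790 for Dhh, chr1:74951673-74951922 for Ihh and chr8:80058061-80058258 for Hhip, 5′ to 3′ along the gene. Capitals mark the core of the GLI binding motif, CCACCC, or its reverse complement, GGGTGG.
Dhh: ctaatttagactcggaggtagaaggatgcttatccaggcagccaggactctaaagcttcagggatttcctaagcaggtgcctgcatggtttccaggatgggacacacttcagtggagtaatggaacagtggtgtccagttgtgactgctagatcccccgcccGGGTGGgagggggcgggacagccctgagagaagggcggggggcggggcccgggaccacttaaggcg
Ihh: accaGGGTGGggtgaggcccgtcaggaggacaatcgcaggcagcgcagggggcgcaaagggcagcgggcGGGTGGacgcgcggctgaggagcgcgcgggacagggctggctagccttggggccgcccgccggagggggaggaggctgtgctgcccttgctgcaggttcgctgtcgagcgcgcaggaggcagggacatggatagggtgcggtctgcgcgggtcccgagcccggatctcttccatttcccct
Hhip: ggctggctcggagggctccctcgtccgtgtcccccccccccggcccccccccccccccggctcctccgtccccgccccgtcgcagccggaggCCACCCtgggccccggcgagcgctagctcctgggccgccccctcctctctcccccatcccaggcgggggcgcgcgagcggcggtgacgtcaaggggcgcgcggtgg
Counted from the start that the promoter table uses, which for Dhh and Hhip lies inside the gene spans given above, the core begins 88 bases before Dhh on the opposite strand, 246 and 181 bases before Ihh on the opposite strand, and 158 bases before Hhip on the gene's own strand. CCACCC was found on either strand in 6 of the 7 matched windows, all but that of Ptch1, and in 31.5% of all 32851 windows. The longer GLI consensus, GACCACCCA, which contains the core, was in 0 of the 7 and in 0.253% of all windows. These are matches of letters only. The 7 windows held 61.7% to 76.3% G or C, against a median of 52.7% over all windows.

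Library totals ran from 10851519 to 14302207 estimated counts, and the hedgehog genes had between 69 (Hhip) and 2439 (Smo) of them in a library. Libraries of one age differed by more than counting noise in every one of 36 pairs (chi-square divided by its degrees of freedom at least 4.95). Cr2, a B cell and follicular dendritic cell gene, was above 5 CPM in 3 libraries, 2 of them at 9 months (libraries 1 and 2, 6.17 and 10.7 CPM) and 1 at 12 months (library 2, 12.5 CPM). Alb, a liver gene, was above 10 CPM in 4 libraries, all at 9 months (libraries 1 to 4, between 16.2 and 361.6 CPM). Oviduct markers summed to between 1831 and 6412 CPM in a library. Libraries are numbered only to name them.

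Levels between genes were compared per kilobase of the longest annotated transcript, as means ± SD over the 19 libraries. Smo stood highest at 44.1 ± 2.08 CPM per kilobase, then Ihh at 16.03 ± 5.51, Ptch1 at 7.82 ± 2.15, Gli1 at 5.08 ± 1.38 and Dhh at 4.80 ± 1.47. Gli2 followed at 3.28 ± 0.443, Hhip at 2.82 ± 1.20 and Gli3 at 1.73 ± 0.308 CPM per kilobase. From Ptch1 downwards the intervals of 1 SD overlapped between neighbours in this order. Ihh was the more abundant ligand transcript at each age, with a ratio of Ihh to Dhh per kilobase of 3.42 ± 0.713 at 3 months (SD, n = 5), 3.03 ± 0.986 at 6 months (n = 5), 4.204 ± 1.40 at 9 months (n = 5) and 3.11 ± 0.622 at 12 months (n = 4). The order of the means was not the same at every age. Dhh was above Gli1 at 3 months (5.93 against 5.71 CPM per kilobase) and 12 months (4.56 against 4.38), and Hhip was above Gli2 at 3 months (3.51 against 3.30). These gaps were smaller than the SD of either gene over the 19 libraries, and a change of order was not tested. The level of Hhip per kilobase was above that of Gli3 at 3 months (3.51 against 1.52) and below it at 9 months (1.58 against 1.87). Shh, the third ligand gene of the family, had at most 2 estimated counts in a library and was not tested.

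With all 19 libraries, Dhh, Ptch1, Gli1 and Hhip were lower at 9 months than at 3 and 6 months. Of these calls at 9 against 3 months, that of Dhh alone held without the 3 libraries high in Cr2. It was then at log2 -0.69 (edgeR adjusted p = 0.0127). In the same fit the calls of Dhh and Ptch1 at 9 against 6 months held (edgeR adjusted p = 0.034 and 0.0366). Without the 4 libraries high in Alb, Gli1 was at -0.058 and Hhip at -0.088 at 9 against 3 months. Library 5 alone then stood for 9 months, so that step cannot show whether the calls hold. This library had the highest Dhh, Ptch1, Gli1 and Hhip of its age. Ptch1 alone was also called lower at 12 months. At 12 against 3 months this held without the libraries high in Cr2. It was lost with the oviduct list as a covariate (log2 -0.51, edgeR adjusted p = 0.0607) and without 12 month library 3 (-0.46, edgeR adjusted p = 0.0523). At 12 against 6 months it was lost with a length and GC correction (-0.53, edgeR adjusted p = 0.0723). Smo held a nearly constant level, and Gli3 did not follow the other genes. None of the 8 rose in any comparison, by edgeR's quasi-likelihood test with an adjusted p under 0.05 (Benjamini-Hochberg over all 15518 genes). In whole ovary, fewer cells of a type and less RNA per cell cannot be told apart.

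**Figure D1:**
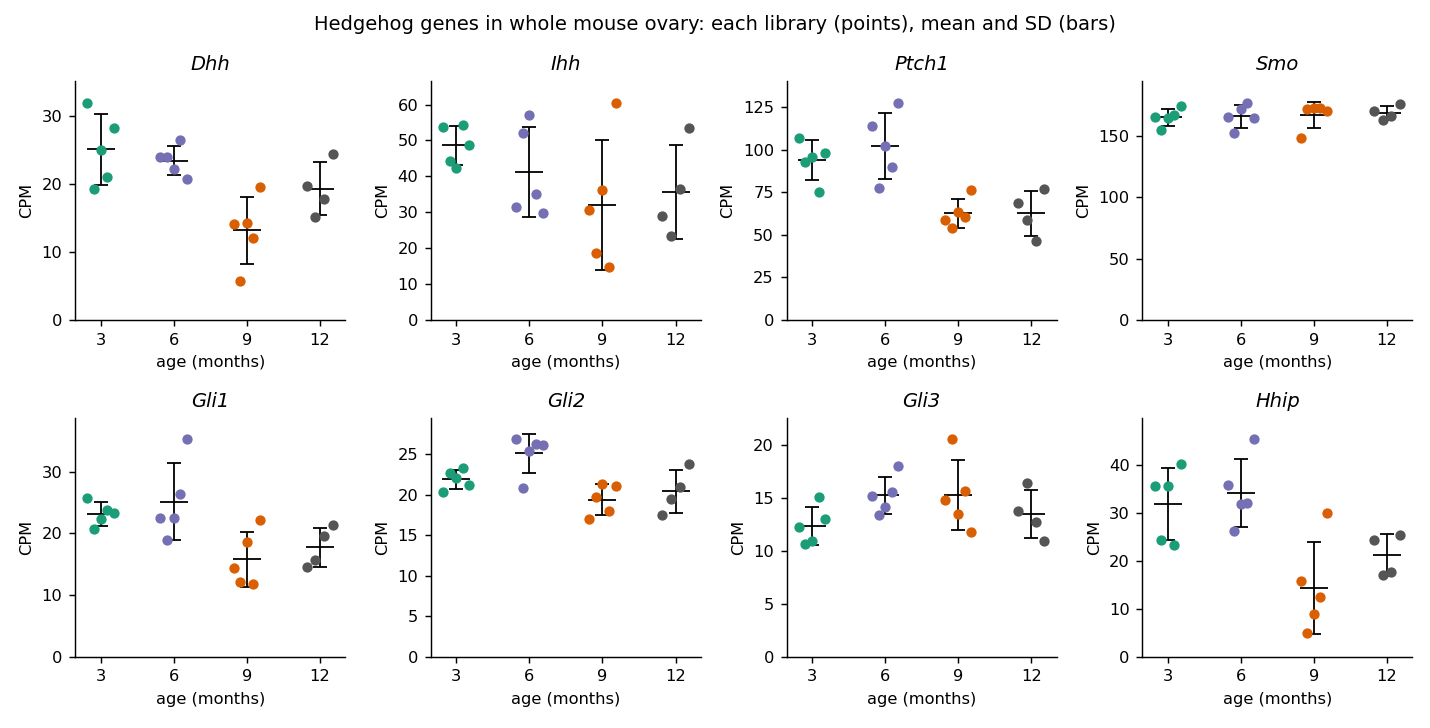
CPM (y axis, from 0) of the 8 hedgehog genes by age in months (x axis); each point is 1 library, and the horizontal mark and bar are the mean and SD. In Dhh, Ptch1, Gli1 and Hhip, 4 of the 5 libraries at 9 months lie below every 3 month library, whereas the Smo means lie between 165.1 and 168.3 CPM at all ages.

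Dhh encodes desert hedgehog, one of the 2 ligands made by granulosa cells. Its level was 32.0, 19.3, 25.0, 21.1 and 28.3 CPM in the 3 month libraries and 24.0, 24.1, 22.2, 26.5 and 20.7 CPM at 6 months. At 9 months it was 14.2, 5.72, 14.3, 12.2 and 19.6 CPM, and at 12 months 19.8, 15.2, 17.8 and 24.5 CPM. The 9 month libraries were all below the lowest at 6 months, and 4 of 5 were below the lowest at 3 months, while the 12 month libraries overlapped every other age. Dhh fell by 47.5% between 3 and 9 months (log2 change -0.93 ± 0.22 SE, edgeR adjusted p = 0.00547) and by 43.8% between 6 and 9 months (-0.83 ± 0.22, adjusted p = 0.0162). At 12 months it was not called against 3 months (-0.38 ± 0.23, adjusted p = 0.25) or against 9 months (0.55 ± 0.23, adjusted p = 0.317).

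Ihh encodes indian hedgehog, the other granulosa ligand. Its level was 53.6, 44.3, 42.4, 54.2 and 48.6 CPM at 3 months and 31.5, 52.1, 57.1, 35.1 and 29.8 CPM at 6 months. At 9 months it was 30.7, 18.6, 36.1, 14.8 and 60.5 CPM, and at 12 months 29.0, 23.4, 36.6 and 53.5 CPM. At 9 months 4 of 5 libraries were below every 3 month library, but library 5 was the highest of all 19, so the ages overlapped. The change from 3 to 9 months was -0.60 ± 0.31 (log2, SE) with an edgeR adjusted p of 0.173. With 9 month library 5 left out it was -0.95 (edgeR adjusted p = 0.018), while in 9 of 10 runs with 1 library left out Ihh was not called. That 1 call rests at 9 months on libraries 1 to 4 only, all of them above 10 CPM of Alb. With these 4 left out instead, and library 5 alone at 9 months, the change was 0.32. From 3 to 12 months the change was -0.45 ± 0.33 (adjusted p = 0.351).

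Ptch1 encodes the receptor, and its transcript is also a target of the pathway. Its level was 106.8, 92.7, 95.6, 74.8 and 98.2 CPM at 3 months and 113.8, 77.7, 101.8, 90.0 and 127.4 CPM at 6 months. At 9 months it was 58.9, 53.8, 63.6, 60.6 and 76.2 CPM, and at 12 months 68.6, 58.7, 46.3 and 76.7 CPM. Every library at 9 and at 12 months was below the lowest 6 month library, and 1 at each of these ages overlapped the 3 month range. Ptch1 fell by 33.1% between 3 and 9 months (log2 -0.58 ± 0.14 SE, edgeR adjusted p = 0.00673) and by 33.2% between 3 and 12 months (-0.58 ± 0.15, adjusted p = 0.0122). Against 6 months it fell by 38.7% at 9 months (-0.71 ± 0.14, adjusted p = 0.00363) and by 38.8% at 12 months (-0.71 ± 0.15, adjusted p = 0.00734). Between 9 and 12 months it changed by -0.0015 ± 0.15 on the log2 scale (adjusted p = 0.998). The call at 12 against 3 months was lost without 12 month library 3 (-0.46, adjusted p = 0.0523).

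Smo encodes the membrane protein that passes the signal on. Its means were 165.1 ± 7.00 CPM at 3 months (SD, n = 5), 166.0 ± 9.38 at 6 months (n = 5), 167.1 ± 10.5 at 9 months (n = 5) and 168.3 ± 5.602 at 12 months (n = 4). Single libraries lay between 148.4 and 176.8 CPM, and the ages overlapped throughout. The change from 3 to 12 months was 0.03 ± 0.06 (log2, SE; edgeR adjusted p = 0.752). Its biological coefficient of variation was 7.05%, the lowest of the 8 genes and below the 18% common to all genes.

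Gli1 encodes the activator whose transcript follows pathway activity most directly in many tissues. Its level was 25.7, 20.7, 22.3, 23.8 and 23.3 CPM at 3 months and 22.5, 19, 22.5, 26.4 and 35.3 CPM at 6 months. At 9 months it was 14.5, 12.1, 18.6, 11.8 and 22.2 CPM, and at 12 months 14.5, 15.6, 19.5 and 21.3 CPM. In all, 4 of 5 libraries at 9 months and 3 of 4 at 12 months were below every 3 month library. Gli1 fell by 31.7% between 3 and 9 months (log2 -0.55 ± 0.18 SE, edgeR adjusted p = 0.0306) and by 37.2% between 6 and 9 months (-0.67 ± 0.18, adjusted p = 0.0157). At 12 against 3 months it was -0.38 ± 0.19 (adjusted p = 0.153). The Gli1 calls lay near the threshold: that at 9 against 3 months held in 3 of 10 runs with 1 library left out, and that at 9 against 6 months was lost without 6 month library 5 (-0.52, adjusted p = 0.0567).

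Gli2 and Gli3 encode the factors that are present before the signal arrives. Gli2 had means of 21.9 ± 1.16 CPM at 3 months (SD, n = 5), 25.1 ± 2.45 at 6 months (n = 5), 19.4 ± 1.89 at 9 months (n = 5) and 20.4 ± 2.64 at 12 months (n = 4). It fell by 22.7% between 6 and 9 months (log2 -0.37 ± 0.10 SE, edgeR adjusted p = 0.0128), where 4 of 5 libraries at 6 months had stood above every 3 month library, and was not called at 9 against 3 months (-0.18 ± 0.10, adjusted p = 0.187). Gli3 had means of 12.4 ± 1.79 CPM at 3 months (n = 5), 15.3 ± 1.78 at 6 months (n = 5), 15.3 ± 3.28 at 9 months (n = 5) and 13.5 ± 2.30 at 12 months (n = 4). Its change of 0.30 ± 0.15 (log2, SE) from 3 to 9 months was not called (adjusted p = 0.135). The ratio of Gli1 to Gli3 per kilobase was 3.80 ± 0.421 at 3 months (SD, n = 5), between 3.18 and 4.23, and 2.24 ± 1.05 at 9 months (n = 5), between 1.18 and 3.77, so the ages overlapped.

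Hhip encodes a membrane protein that binds and sequesters hedgehog ligands, and its highest and lowest libraries lay further apart in fold than those of the other 7 genes. Its level was 35.6, 24.4, 35.6, 23.3 and 40.2 CPM at 3 months and 35.8, 26.1, 31.7, 32.0 and 45.3 CPM at 6 months. At 9 months it was 15.7, 4.96, 8.81, 12.6 and 29.9 CPM, and at 12 months 24.4, 17.1, 17.7 and 25.4 CPM. Of the libraries at 9 months, 4 of 5 were below every 3 and 6 month library, library 5 lay within the younger range, and every 12 month library was below the lowest at 6 months. Hhip fell by 54.8% between 3 and 9 months (log2 -1.15 ± 0.33 SE, edgeR adjusted p = 0.017) and by 58.0% between 6 and 9 months (-1.25 ± 0.33, adjusted p = 0.0154). At 12 months the change was -0.59 ± 0.34 against 3 months (adjusted p = 0.227) and -0.69 ± 0.34 against 6 months (adjusted p = 0.186). The 9 month calls of Hhip were lost when only the 2 ages compared were fitted, with adjusted p of 0.0626 against 3 months and 0.0556 against 6 months.

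Counted over the 8 genes by the same test, 4 fell and 0 rose at 9 against 3 months, where 13.6% of all genes tested were called lower and 11.3% higher. At 9 against 6 months 5 fell, Dhh, Ptch1, Gli1, Gli2 and Hhip, where 9.8% of all genes were called lower and 7.44% higher. At 12 against 3 months 1 fell, where 11.5% were called lower and 10.9% higher, and at 12 against 6 months 1 fell, where 7.27% were called lower. Both were Ptch1, so at 12 months the count over these genes was near the background. The median log2 change of the 8 was -0.57 at 9 against 3 months and -0.38 at 12 against 3 months, beside 0.01 and 0.02 over all genes tested. These comparisons share libraries and are not independent of each other.

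At 6 against 3 months 0 of 8 were called by edgeR, where 0.0193% of all genes were. An unadjusted edgeR p under 0.05 was reached by 0 of 8 and by 1528 of all 15518 genes tested. At 12 against 9 months 0 were called by edgeR, where 0% of all genes were. An unadjusted edgeR p under 0.05 was reached by 1 of 8, Dhh (0.0305), and by 2152 of all 15518 genes tested. DESeq2 and limma-voom also called 0 in both. Without overlap between ages, 2 genes were lower at 12 than at 6 months, Ptch1 and Hhip, and 2 were lower at 9 than at 6 months, Dhh and Ptch1; 7.75% of all genes tested were apart in that direction in each of these comparisons. As a linear trend, given as the change over 9 months, 2 genes fell, where 14.8% of all genes were called lower and 14.7% higher. These were Ptch1 (log2 -0.75 ± 0.18 SE, edgeR adjusted p = 0.00446) and Gli1 (-0.56 ± 0.20, adjusted p = 0.0438), the latter called in 6 of 19 runs with 1 library left out.

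**Figure D2:**
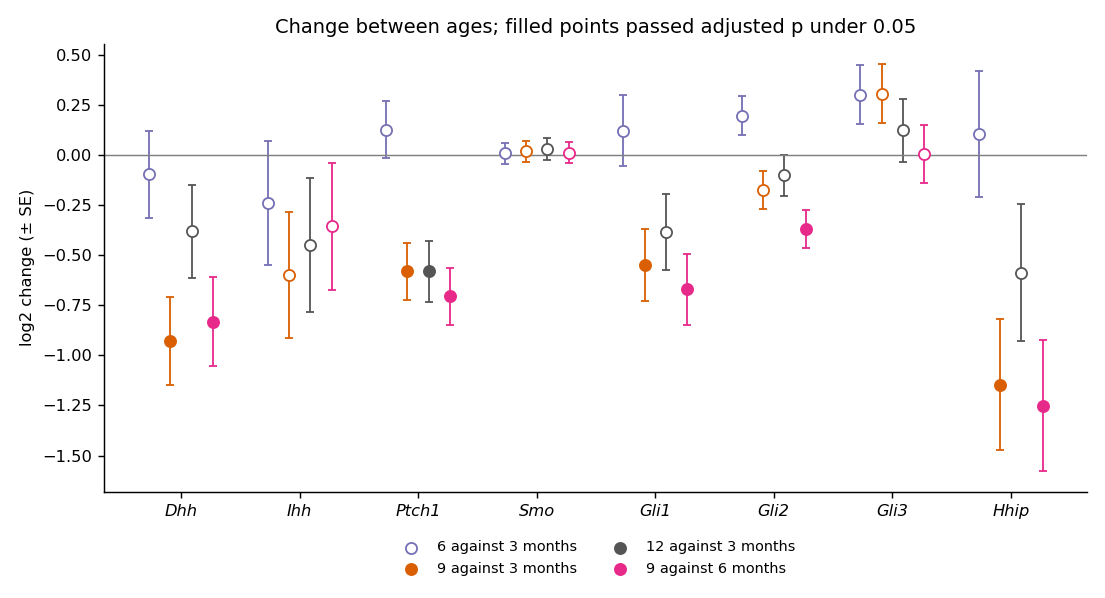
Log2 change with its SE (y axis) for each gene (x axis) in 4 comparisons of ages; filled points passed the adjusted p threshold of 0.05 and open points did not. The 6 against 3 month points are all open and lie between -0.24 and 0.30, while the filled points all lie below 0.

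The 9 month libraries were not alike. Library 5 had the highest level at its age of Dhh, Ihh, Ptch1, Gli1 and Hhip, at 77.9%, 124% and 81.4% of the 3 month mean for Dhh, Ihh and Ptch1 and 95.9% and 93.9% for Gli1 and Hhip. Library 2 had the lowest Dhh, Ptch1 and Hhip, at 22.8%, 57.5% and 15.6% of the 3 month mean, and the highest Gli3, at 166%. It also had Cr2 at 10.7 CPM, Alb at 109.2 CPM and the highest Ovgp1, an oviduct marker, of all 19 libraries (6146 CPM). In library 5 these 3 genes were at 0.216, 3.08 and 2921 CPM. The highest Alb was in library 3 (361.6 CPM), with Gli1 at 80.2% and Hhip at 27.7% of the 3 month mean. Library 4 had the lowest Ihh and Gli1, at 30.5% and 50.8%, with Alb at 16.2 CPM and Cr2 at 0.416 CPM. Whether Cr2, Alb or Ovgp1 varied with the hedgehog genes was not tested. The oocyte gene Gdf9, whose product acts on granulosa cells, was also lowest in library 2 (3.81 CPM) and highest in library 5 (25.3 CPM) among the 9 month libraries. All of these were below the 3 month range of 54.3 to 79.5 CPM, where 9.46% of all genes tested were apart in that direction. At 12 months, library 4 had the highest Dhh, Ihh, Ptch1, Gli1, Gli2 and Hhip and the lowest Gli3, with the highest Gdf9 of that age (28.3 CPM).

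**Figure D3:**
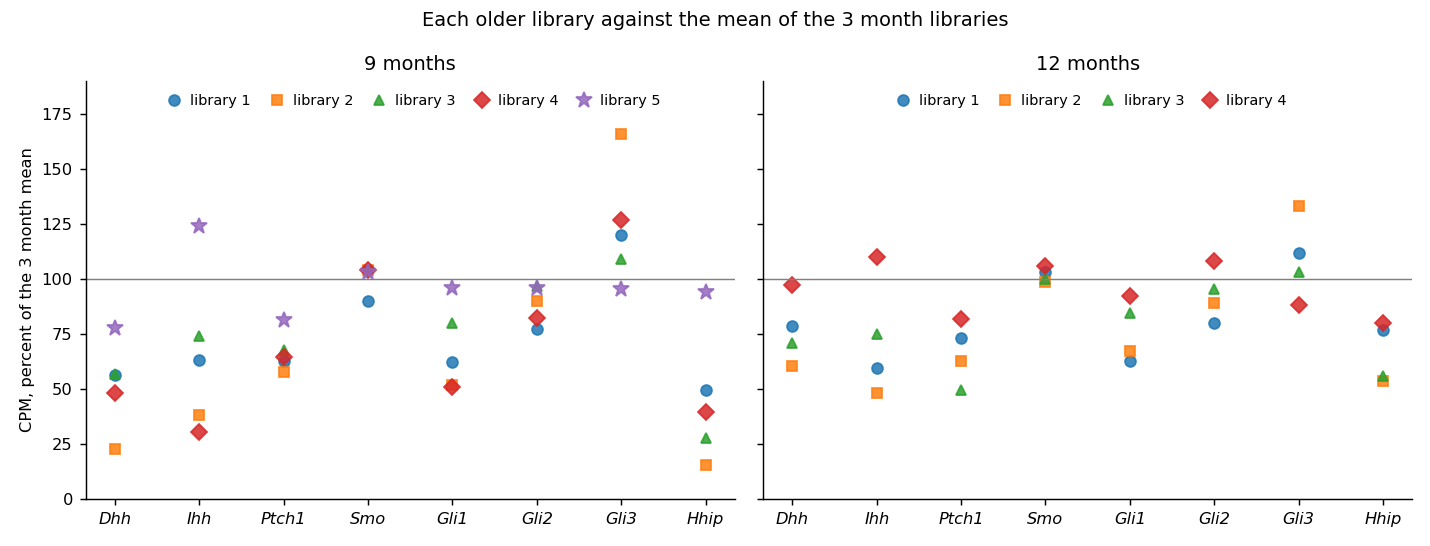
CPM of each library as a percent of the 3 month mean of that gene (y axis, from 0; grey line at 100) for the 8 genes (x axis), at 9 months (left) and 12 months (right). Library 5 at 9 months (stars) lies near the line for Gli1 and Hhip, where libraries 1 to 4 are lower.

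The libraries high in Cr2 and those high in Alb were left out in turn. Both genes were chosen after their values were seen. Without the 3 libraries above 5 CPM of Cr2, Dhh remained called at 9 against 3 months (log2 -0.69, edgeR adjusted p = 0.0127) and Ptch1 (-0.47, 0.0775), Gli1 (-0.38, 0.205) and Hhip (-0.88, 0.0812) did not. The count of genes called then went from 4 to 1 at 9 against 3 months and from 5 to 2 at 9 against 6 months. These 2 were Dhh (-0.595, edgeR adjusted p = 0.034) and Ptch1 (-0.596, 0.0366), and Gli1, Gli2 and Hhip were lost. Only libraries 3, 4 and 5 then stood for 9 months. The share of all genes called at 9 months in that smaller fit was not counted. Ptch1 remained called at 12 against 3 months (-0.55, edgeR adjusted p = 0.0337). Without the 4 libraries above 10 CPM of Alb, a step chosen after seeing the data, library 5 alone stood for 9 months and is assumed to vary like the other ages. At 9 against 3 months Dhh was then at -0.36, Ptch1 at -0.295, Gli1 at -0.058 and Hhip at -0.088. With 1 library at that age, this cannot show whether the 9 month calls hold. At 12 against 3 months Ptch1 was at -0.59 and Hhip at -0.60. Whether Cr2 came from another tissue or from cells within the ovary was not tested. The part of the cells that carry Cr2 or Alb in the 9 month results was not tested either.

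**Figure D4:**
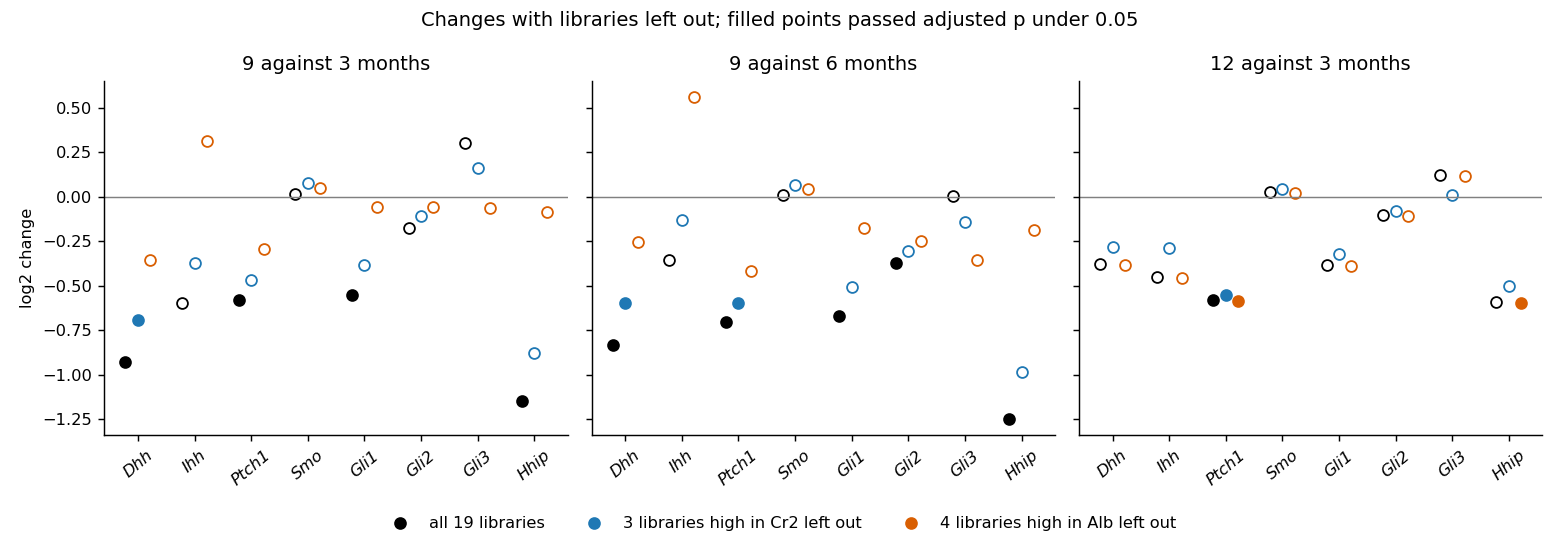
Log2 change (y axis) of each gene (x axis) at 9 against 3, 9 against 6 and 12 against 3 months, with all 19 libraries (black), without the 3 libraries high in Cr2 (blue) and without the 4 high in Alb (orange); filled points passed an adjusted p of 0.05. The 9 month changes of Gli1 and Hhip lie closer to 0 with each set left out, and the 12 month change of Ptch1 stays between -0.55 and -0.59. The orange 9 month points rest on library 5 alone.

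Ligand and target transcripts were then compared across the 19 libraries on log2 CPM, in 9 pairs with Benjamini-Hochberg adjustment over the 9. How often other pairs of genes would pass was not counted. A pass therefore does not show a relation particular to ligand and target. Dhh and Hhip had a Pearson r of 0.91 (permutation p = 1e-05, the smallest that 100000 resamples can give, adjusted p = 9e-05) and a Spearman rho of 0.83 (permutation p = 8e-05, adjusted 0.00024). Dhh also varied with Gli1 (r = 0.746, permutation p = 0.00012, adjusted 0.000234; rho = 0.772, permutation p = 0.00026) and with Ptch1 (r = 0.68, permutation p = 0.0007, adjusted 0.00105; rho = 0.744, permutation p = 0.00055). With the mean of each age subtracted, Dhh and Hhip still varied together (r = 0.807, permutation p within ages 0.00507, adjusted 0.0228), whereas the r of 0.52 with Gli1 and 0.454 with Ptch1 did not pass (adjusted permutation p = 0.0951 for both). Without the 2 libraries farthest from the median of Dhh, r was 0.804 with Hhip, 0.596 with Gli1 and 0.682 with Ptch1, and all 3 still passed.

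Over the same 19 libraries, Ihh reached r = 0.643 with Gli1 (permutation p = 0.00311, adjusted 0.004; rho = 0.518, permutation p = 0.0249), 0.591 with Hhip (permutation p = 0.00853, adjusted 0.0096; rho = 0.4, permutation p = 0.0907) and 0.435 with Ptch1 (permutation p = 0.0626, adjusted 0.0626; rho = 0.398, permutation p = 0.0916). Without the 2 libraries farthest from the median of Ihh these r were 0.331, 0.287 and 0.246, and 0 of the 3 passed; leaving out the extremes also narrows the range of Ihh. With age means subtracted the r were 0.525 with Gli1, 0.42 with Hhip and 0.162 with Ptch1 (adjusted permutation p = 0.116, 0.31 and 0.528). Without the 3 libraries high in Cr2 they were 0.494, 0.387 and 0.235 (adjusted permutation p = 0.0795, 0.155 and 0.38). Whether Dhh and Ihh differ in their relation to the targets was not tested.

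The 3 target transcripts varied together. Ptch1 and Hhip had r = 0.799 (permutation p = 2e-05, adjusted 9e-05; rho = 0.911, permutation p = 1e-05), and 0.657 within ages (permutation p = 0.00015, adjusted 0.00135). Gli1 had r = 0.788 with Hhip (permutation p = 6e-05, adjusted 0.00018; rho = 0.839, permutation p = 2e-05) and 0.776 with Ptch1 (permutation p = 0.00013, adjusted 0.000234; rho = 0.786, permutation p = 0.00012). Within ages these last 2 were 0.553 and 0.495 and did not pass (adjusted permutation p = 0.0951 for both). Without the 2 libraries farthest from the median of the first gene of each pair, r was 0.837 for Ptch1 and Hhip, 0.679 for Gli1 and Hhip and 0.745 for Gli1 and Ptch1.

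**Figure D5:**
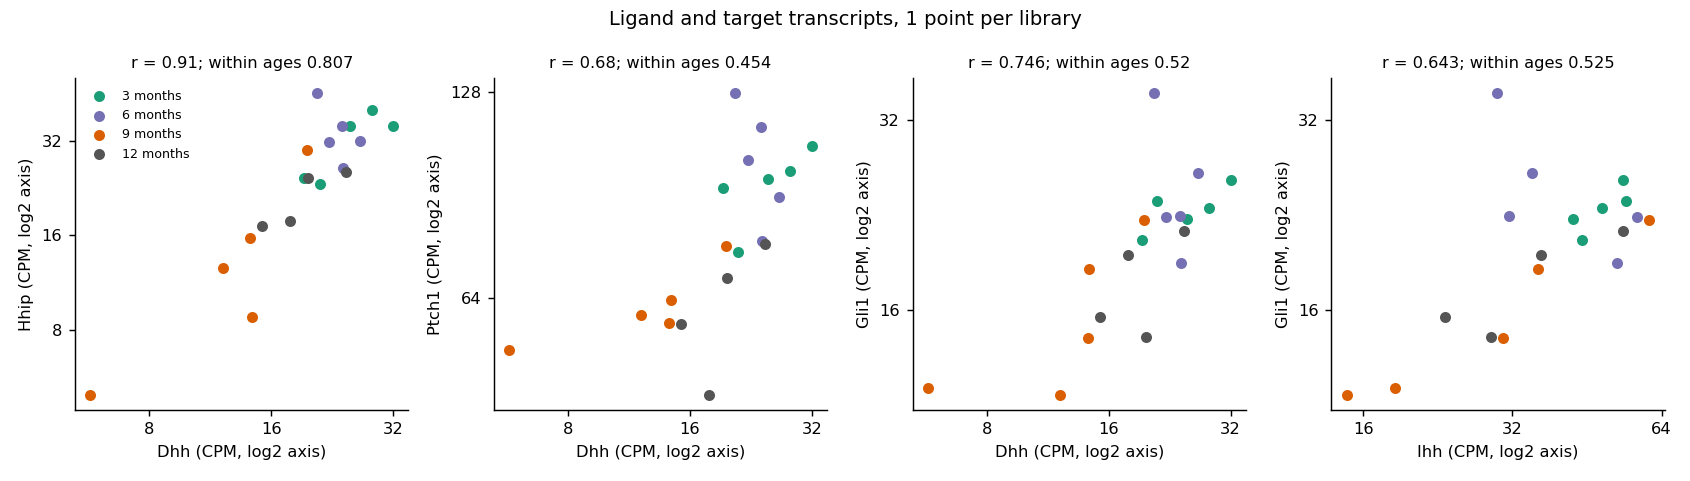
CPM of a target (y axis, log2 scale) against CPM of a ligand (x axis, log2 scale) for 4 of the 9 pairs, with 1 point per library coloured by age; r and the r with age means subtracted stand above each panel. The 9 month library at the lower left of the Dhh and Hhip panel is library 2, at 5.72 and 4.96 CPM.

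The other tested genes most like each hedgehog gene were listed by Pearson r of log2 CPM over the 19 libraries, as a description. For Dhh these were Chst8 (0.952), Car14 (0.948) and Serpine2 (0.946), and for Hhip Ss18 (0.943), Tipin (0.936) and Kpna7 (0.932). All of these r were above the 0.91 between Dhh and Hhip. For Ptch1 the most alike genes were Dzip3 (0.918), Cdc27 (0.912) and Ankrd28 (0.912), and for Gli1 Mamld1 (0.904), Pask (0.884) and Fgfr4 (0.867). Ihh was most like Kcne2 (0.863), Gli2 like Zc3h7b (0.885), Gli3 like Dync1i1 (0.791) and Smo like Cldn4 (0.738). None of these is one of the 60 further pathway genes described next.

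A list of 62 further pathway genes was examined by role, of which 60 were tested. At 12 against 3 months 6 rose and 7 fell by edgeR, where 10.9% of all genes were called higher and 11.5% lower, and the list's median log2 change was -0.03 beside 0.02 over all genes. At 9 against 6 months 3 rose and 10 fell, where 7.44% of all genes were called higher and 9.8% lower, with a median of -0.05 beside 0.01. The counts by role are to be read against the shares at 12 against 3 months. Among genes for ligand processing, release and carriage, 0 of 6 rose and 1 fell at 12 months. This was Scube1, of a family of secreted proteins that help release the lipid-bearing ligand, with means of 38.5 ± 5.90 CPM at 3 months (SD, n = 5), 39.4 ± 5.22 at 6 months (n = 5), 21.9 ± 3.97 at 9 months (n = 5) and 26.2 ± 2.92 at 12 months (n = 4). The 12 month libraries were all below the 3 month ones (log2 -0.55 ± 0.14 SE, adjusted p = 0.00958), where 9.73% of all genes tested were apart in that direction. Scube3 was -0.56 ± 0.23 and was not called (adjusted p = 0.088).

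Among receptors and co-receptors, 1 of 7 rose and 1 fell at 12 months. Gas1, a co-receptor anchored in the membrane that helps PTCH1 bind ligand, went from 103.7 ± 11.1 CPM at 3 months (SD, n = 5) and 112.6 ± 9.25 at 6 months (n = 5) to 178.6 ± 33.1 at 9 months (n = 5) and 152.2 ± 25.99 at 12 months (n = 4). Every library at 9 and at 12 months was above every 3 month library. Of all genes tested, 5.54% were apart in that direction at 9 months and 6.74% at 12 months. Gas1 rose by 46.8% at 12 months (log2 0.55 ± 0.12 SE, edgeR adjusted p = 0.00503). Gpc6, a glypican, was called lower with an adjusted p of 0.0498, a call that held in 1 of 9 runs with 1 library left out.

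Among intracellular regulators of SMO and GLI, 3 of 21 rose and 2 fell at 12 months, beside 10.9% of all genes called higher and 11.5% lower. Evc2, part of a complex at the base of the cilium that acts with SMO, went from 89.9 ± 7.28 CPM at 3 months (SD, n = 5) and 81.5 ± 3.54 at 6 months (n = 5) to 59.4 ± 5.95 at 9 months (n = 5) and 67.5 ± 3.07 at 12 months (n = 4). It was lower in all 4 libraries at 12 months than in any at 3 months (log2 -0.42 ± 0.07 SE, edgeR adjusted p = 0.0015). Of all genes tested, 9.73% were apart in that direction. Cul3, a ubiquitin ligase scaffold through which GLI proteins are degraded, fell by 15.3% (adjusted p = 0.0086), and Mgrn1, a ubiquitin ligase, rose by 14.2% (log2 0.19, adjusted p = 0.0186), a call that held in 7 of 9 runs with 1 library left out and was lost in 3 of 12 other settings, with a change of 0.055 under the length and GC correction. Adrbk1, a kinase that acts on SMO, was called higher with an adjusted p of 0.0484, which held in 2 of 9 runs with 1 library left out.

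Among genes for transport in the primary cilium, 0 of 15 rose and 1 fell at 12 months, beside 10.9% of all genes called higher and 11.5% lower. Ift80 fell by 16.2% at 12 against 3 months (log2 -0.26 ± 0.09 SE, edgeR adjusted p = 0.0387), a call that held in 3 of 9 runs with 1 library left out, and by 22.8% at 9 against 6 months (adjusted p = 0.00502). Dync2h1, the motor of transport back from the tip, was called lower at 9 against 6 months (-0.50 ± 0.11, adjusted p = 0.0047) and not at 12 against 3 months (adjusted p = 0.112).

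Among genes often reported as hedgehog targets in other tissues, 2 of 11 rose and 2 fell at 12 months. Mycn, a transcription factor gene of proliferating cells, went from 38.6 ± 7.08 CPM at 3 months (SD, n = 5) and 30.0 ± 4.08 at 6 months (n = 5) to 17.6 ± 4.50 at 9 months (n = 5) and 20.2 ± 1.49 at 12 months (n = 4). It fell by 47.8% between 3 and 12 months (log2 -0.94 ± 0.17 SE, edgeR adjusted p = 0.0018). Ccnd2, the cyclin D2 gene of granulosa cells, fell by 28.2% (adjusted p = 0.00323), whereas Bmp4, a growth factor gene, rose by 50.6% (adjusted p = 0.00897). Osr1 was 0.63 ± 0.25 on the log2 scale and was not called at 12 months (adjusted p = 0.0773).

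Markers of oocytes, of granulosa cells and of theca and interstitial cells were counted in the same way. At 9 against 3 months, 13 of 13 oocyte markers fell, 4 of 13 granulosa markers fell and 0 rose, and 4 of 13 theca and interstitial markers fell and 1 rose, where 13.6% of all genes were called lower and 11.3% higher. The median log2 change was -2.08 for the oocyte list, -0.40 for the granulosa list and -0.07 for the theca and interstitial list. Granulosa markers summed to between 4487 and 6067 CPM at 3 months and between 2388 and 5884 at 9 months, oocyte markers to between 306.1 and 483.6 CPM and between 18.8 and 137.1 CPM, and theca and interstitial markers to between 8661 and 10990 CPM and between 7585 and 13230 CPM. Amh, a granulosa hormone gene of growing follicles, fell from 199.4 ± 57.7 CPM at 3 months (SD, n = 5) to 54.1 ± 23.2 at 9 months (n = 5; log2 -1.88 ± 0.31 SE, edgeR adjusted p = 0.000494). This change was larger than the median of its list. The granulosa markers Cyp19a1 (34.97 ± 16.82 to 58.59 ± 54.02 CPM) and Inhba (257 ± 52.57 to 303.8 ± 148.6 CPM) had higher means at 9 months and were not called higher. The rest of that list had lower means. Cyp17a1, the androgen-making enzyme gene of theca cells, fell from 540.6 ± 136.5 to 128.2 ± 138.2 CPM (adjusted p = 0.0277), with libraries 1 and 5 at 9 months at 255.8 and 301.2 CPM and the other 3 between 23.2 and 32.5 CPM. Not every member of that list fell: Lhcgr, the LH receptor gene that luteal cells also express, rose from 94.6 ± 37.2 to 278.2 ± 125.6 CPM (edgeR adjusted p = 0.0191), and Cyp11a1 was not called, at 2640 ± 679.3 and 3171 ± 938.9 CPM (adjusted p = 0.486). No marker of these 3 lists was at 0 in every library.

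Smooth muscle, endothelial and macrophage markers went the other way. At 9 against 3 months 7 of 11, 10 of 10 and 8 of 10 of them rose and 0 fell, beside 11.3% of all genes called higher. Smooth muscle and pericyte markers summed to between 1465 and 2110 CPM at 3 months and between 2231 and 3804 at 9 months, and Acta2 of that list is listed at 0 in every library. The share of these shifts in cell markers in the hedgehog results was not tested.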

How the data were processed

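Whole ovaries of female mice were frozen on dry ice and their RNA was purified on columns and made into libraries that keep strand, per the labels' protocols. The submitters' processing notes name the build mm10. For the aligner and the counting, the tool is not given in the sources used here. The authors deposited estimated counts per gene, not all of them whole, and these were rounded for the count tests. They also deposited log2 values set against the 3 month median, used only as an alternative. In each table, 1 column of per-library values has no matching sample, and it was left out.

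Libraries were grouped by their age label. edgeR (version 4.0.16; R 4.3.3) was run with TMM scaling, its low-count filter (minimum count 10, minimum total 15), a mean per age over all 19 libraries and its robust quasi-likelihood test, with Benjamini-Hochberg adjustment over 15518 genes and a threshold of 0.05. Adjusted p-values are from this test unless another is named. The trend was fitted on age and is given per 9 months. For each hedgehog gene and age, CPM are means ± SD; log2 CPM used a prior count of 2. Where 2 rows shared a symbol, the one with the higher mean was taken. Relations between genes used two-sided permutation tests with 100000 resamples. The steps were tested on simulated data.

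The hedgehog genes, the gene lists and the naming rule were chosen with earlier results of these data known. The rule names, per pathway role, up to 4 genes passing at 12 against 3 months or along the trend with the smallest p, and per cell type up to 3 passing at 12 months, always with Cyp17a1, Insl3, Gdf9, Amh and Acta2, of which a part is printed; for each hedgehog gene it takes the 3 most alike other genes. Cr2, Alb, Shh, Rhebl1, Cyp11a1, Cyp19a1 and Inhba were outside the rule and chosen after their values were seen. Alternatives were DESeq-type size factors (RLE), DESeq2 1.42.0 itself, limma-voom with sample weights (limma 3.58.1), the authors' log2 values with limma-trend, all genes without filtering, a CPM of at least 1 in 4 libraries, 2 surrogate variables (sva 3.50.0), the oviduct list as a covariate, a length and GC correction (known for 95.7% of genes tested), only the ages compared, leaving out libraries over 5 CPM of Cr2 or, added after seeing the data, over 10 CPM of Alb, and leaving out each library.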

Additional observations from a re-analysis of the deposited data

Results flagged for a closer look

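In 9 month library 1, Smo was at 148.4 CPM while the nearest other library of that age was at 170.5 CPM, a gap that made up 0.904 of the range of the 5 libraries. In 6 month library 2, Gli2 was at 20.83 CPM against 25.45 CPM in the nearest other library, a gap of 0.769 of the range. Both gaps exceed Dixon's 95% critical value of 0.71 for 5 libraries. These were 2 of 32 sets of libraries examined, and chance marks about 1 set in 20.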

How the results depend on the processing

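The count of hedgehog genes called at 12 against 3 months (1) was 0 with the oviduct covariate and 2 with the length and GC correction or without the libraries high in Alb. At 9 against 3 months (4) it was 2 with 2 surrogate variables, 1 without the libraries high in Cr2 and 0 without those high in Alb. At 9 against 6 months (5) it was 3 with only the 2 ages compared, 2 without the libraries high in Cr2 and 0 without those high in Alb. At 12 against 6 months (1) it was 2 with DESeq2, the authors' log2 values or only the 2 ages, 3 without the libraries high in Alb and 0 with the length and GC correction. Along the trend (2) it was 1 with no filter, 2 surrogate variables or without the libraries high in Cr2, and 4 with the oviduct covariate. The Alb step, added after seeing the data, leaves 1 library at 9 months, so its counts there cannot show whether the calls hold. For the other settings the cause was not tested. Beside the 9 month counts and the 12 against 6 month count, the share of all genes called in each alternative was not counted. The 6 against 3 and 12 against 9 month counts were 0 in every alternative run. With 1 library left out at a time the counts ran from 0 to 1 at 12 against 3 months, 3 to 6 at 9 against 3 months, 4 to 5 at 9 against 6 months, 1 to 2 at 12 against 6 months and 1 to 3 along the trend. Over the whole table, genes changed at 12 against 3 months (3475) were 1995 with the oviduct covariate and 2124 to 3665 with 1 library left out, and along the trend 3798 to 4853 with 1 library left out.

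Of the relations between ligands and targets, 8 of 9 passed, 2 with age means subtracted and 7 to 9 with 1 library left out. The share of other gene pairs that would pass was not counted. No called change or relation turned its direction in any alternative. Depth limits precision where counts are low, as for Hhip in 9 month library 2, with 69 estimated counts. No paired analysis was possible because the labels give no replicate numbers shared between ages.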
